A study of Homo sapiens with 2 samples.

Results

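Zinc-finger transcription factors form the largest family of DNA-binding proteins in the human genome, and many of their genes lie side by side in clusters. The clusters outside chromosome 19 are described here in H1299, a lung carcinoma cell line. The listed genes number 45, in clusters on chromosomes 3, 6, 7, 8, 10, 12, 16 and 18, out of 18132 genes with a probe set of their own among 49395 probe sets. Each gene was represented by the probe set with the highest mean of both arrays, and 43 of the 45 had at least 1 probe set of their own, 113 in all. Expression of the 2 remaining genes, ZNF197 and ZNF783, was not analysed here, and they enter only the description of promoters. The list had been drawn up with earlier results of these arrays known, so the differences below are descriptions.

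Cells of one sample received a pcDNA3.1 plasmid carrying EGR1, itself a zinc-finger protein, encoded by an immediate early gene, and cells of the other received empty pcDNA3.1. Both were transfected transiently with Lipofectamine 2000 and collected after 48 hours, and RNA was hybridised to 1 Affymetrix array per group. Values are log2 levels that the authors made with RMA, which subtracts background, brings arrays to a common distribution and combines the probes of a probe set into 1 value. Differences are log2 levels, EGR1 minus empty vector. With 1 array per group no difference has a replicate check, and none could be tested. Fewer transfected cells and less RNA per cell cannot be told apart in such bulk samples.

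The transfected gene had 6 probe sets, of which the most raised read 11.43 in the EGR1 array and 7.70 in the empty-vector array and the next 9.92 (EGR1) and 7.17 (empty vector). The other 4 EGR1 probe sets had differences from -0.39 to -0.20. One of these had the highest mean of the 6, with 10.12 in the EGR1 array and 10.51 in the empty-vector array. The rule that represents each gene by its brightest probe set would thus give EGR1 itself as 1.31-fold lower. The reason was not tested. The arrays correlated with r = 0.995 over all probe sets, which share the same RNA and are no replicates. Genes with several probe sets gave the only measure of error. The SD of the log2 difference between probe sets of a gene, pooled over 7113 genes, was 0.15, and it covers probe-level error alone. A floor on signal was set at 5.22, which is the 40th percentile of mean levels, and 34 of the 43 measured genes lay above it. That the cells are H1299 comes from the sample titles and was not tested by markers. The mesenchymal marker VIM read 13.66 in the EGR1 array and 13.73 in the empty-vector array. CDH2 read 8.49 (EGR1) and 8.41 (empty vector), while the epithelial markers EPCAM and CDH1 lay under the floor. The keratins KRT8 (9.97 for EGR1 and 7.97 for empty vector) and KRT18 (12.47 for EGR1 and 10.70 for empty vector) were well above it. Of 4 markers of other cells, PTPRC and COL1A1 lay under the floor, and PECAM1 (5.73 in the EGR1 array and 5.53 in the empty-vector array) and CD3E (5.49 for EGR1 and 5.18 for empty vector) lay just above it.

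Classical zinc fingers each fold around a zinc ion and read a few bases of DNA, and arrays of fingers give each protein its own target sequence. Many of these proteins carry a KRAB domain at one end. KRAB binds the corepressor TRIM28, which brings the histone methyltransferase SETDB1 and heterochromatin protein to the target, often a transposable element. A smaller group carries a SCAN domain, through which the proteins pair with each other.

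Most of the 43 genes differed little between the arrays. Of these, 23 were lower and 19 higher in the EGR1 array, and ZNF174 was identical in both. The median difference was -0.03, against -0.02 over all 12652 genes past the floor and 0 over all genes. In 21 of the 43 the difference was no larger than the pooled SD of 0.15. A threshold was set at a log2 difference of 0.32, where the level in one array is 25% above that in the other. By it 5 of 43 genes, or 11.6%, were lower in the EGR1 array, against 3.41% of all genes, and 2 of 43, or 4.65%, were higher, against 5.39%. Past the floor these were 4 and 2 of 34 genes, against 3.25% and 4.36% of all genes there, and 18 of the 34 were below 0 and 15 above, against 52.8% and 44.6%. At a threshold of 0.20 (15%), 12 genes were lower and 5 higher, against 11.5% and 14.5% of all genes. At 1.5-fold ZNF519 was lower and no gene was higher, against 0.265% and 0.86%. The 5 lower genes were ZNF519, ZNF33A, ZNF92, ZNF34 and ZNF680, and the 2 higher genes were ZNF213 and ZNF786. ZNF680 lay just inside that threshold at -0.33, and ZNF35 just outside it at -0.28. The rule that chose the genes used this contrast, so nothing is read from these shares. The plot of all probe sets by cluster sets the disagreement among probe sets of a gene beside the distance between clusters.

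**Figure D1:**
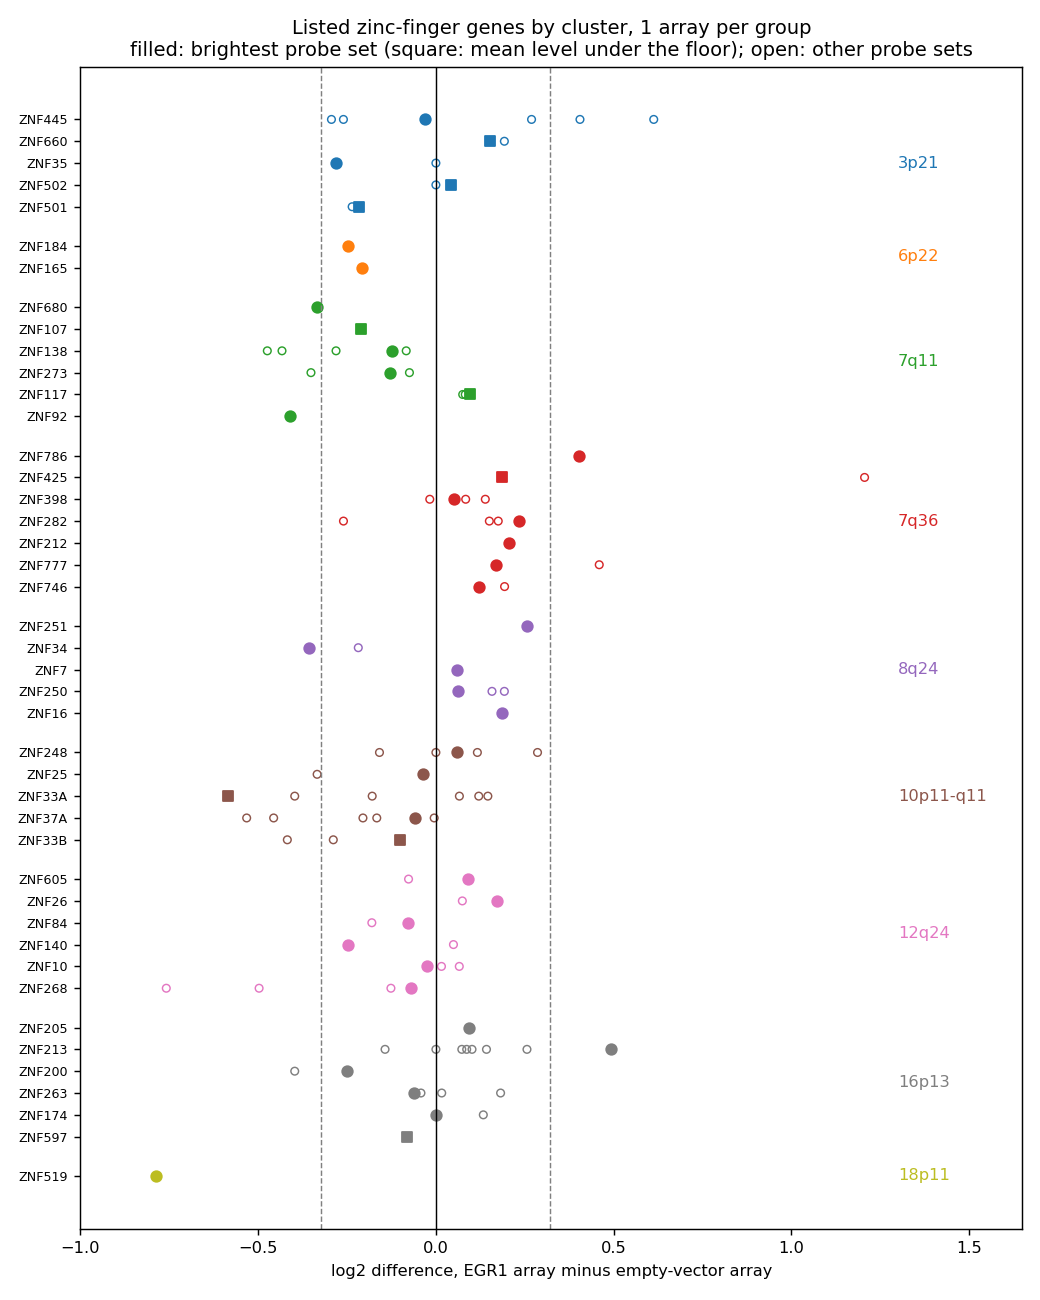
Log2 difference (EGR1 array minus empty-vector array, horizontal axis) of each measured gene, grouped by cluster. Filled symbols are the probe set with the highest mean level (squares where that mean lies under the floor of 5.22), open circles the other probe sets, and dashed lines mark the threshold of 0.32. All 7 filled symbols of 7q36 lie above 0, 5 of 6 in 7q11 lie below 0, and ZNF519 is lowest at -0.79.

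The cluster of 7q36 was higher in the EGR1 array in each of its 7 measured genes, with a median difference of 0.19 and a range from 0.05 to 0.40. Over all genes, 47.6% were above 0. ZNF786 stood at the top, with 6.37 in the EGR1 array against 5.97 in the empty-vector array, or 1.32-fold higher. Its other probe set gave 5.83 (EGR1) and 5.43 (empty vector), a difference identical to 4 decimals. Whether the 2 probe sets share probes was not tested. The probe sets that stand for ZNF786 and ZNF777 have the suffix _x_at and can bind related transcripts. ZNF282, which was found as a binding protein of the HTLV-1 long terminal repeat, read 7.79 in the EGR1 array and 7.56 in the empty-vector array (1.18-fold higher). One of its 4 probe sets, under the floor, went the other way (-0.26). ZNF212 read 8.61 (EGR1) and 8.40 (empty vector) from a single probe set, a difference of 0.21. ZNF777 read 6.37 in the EGR1 array and 6.20 in the empty-vector array, and its dimmer probe set differed by 0.46.

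The remaining genes of 7q36 differed by smaller amounts. ZNF746, known as PARIS, a parkin substrate that represses the PGC-1alpha gene, read 7.30 in the EGR1 array and 7.18 in the empty-vector array. The lowest difference of the cluster was that of ZNF398, a KRAB protein that interacts with the oestrogen receptor, with 7.42 (EGR1) and 7.37 (empty vector) and a difference of 0.05. ZNF425 was the 1 gene of the cluster under the floor, at 5.19 in the EGR1 array and 5.01 in the empty-vector array. Its second probe set had the largest difference of any probe set of the 43 genes, 1.21 (5.01 for EGR1 and 3.80 for empty vector), from a level well under the floor. Past the floor all 9 probe sets of 7q36 were higher in the EGR1 array, and of all 17 probe sets 15 were higher. Under 7 alternative treatments the median of the cluster lay between 0.17 and 0.30, the highest from the 6 genes with a second probe set.

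The other cluster of chromosome 7, at 7q11, lay in the opposite direction. Of its 6 genes 5 were lower in the EGR1 array, with a median difference of -0.17, where 47.9% of all genes were below 0. ZNF92 differed most, with 7.68 in the EGR1 array and 8.09 in the empty-vector array, or 1.33-fold lower, by its 1 probe set. ZNF680 read 6.47 (EGR1) and 6.80 (empty vector), or 1.26-fold lower, and its dim second probe set gave the same difference of -0.33. ZNF273 read 5.49 in the EGR1 array and 5.62 in the empty-vector array, and its other probe sets ranged from -0.35 to -0.07. ZNF138 read 5.34 (EGR1) and 5.46 (empty vector), and all 5 of its probe sets were lower, down to -0.47. ZNF107 was dim, at 3.71 in the EGR1 array and 3.92 in the empty-vector array.

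ZNF117, which shares its locus with the endogenous retrovirus ERV3-1, was the exception in 7q11. It read 5.07 in the EGR1 array and 4.97 in the empty-vector array, under the floor, with all 3 probe sets between 0.08 and 0.10. Past the floor the 5 probe sets of 7q11 were all lower. The probe sets that stand for ZNF680, ZNF107 and ZNF138 have the suffix _s_at or _x_at and can bind related transcripts; whether these genes share signal was not tested. Without probe sets of those suffixes the median of the cluster, over 5 genes, was -0.33, where the brightest probe sets of the same genes gave -0.13. With the second brightest probe set of each gene, over 4 genes, it was -0.34, where the brightest of the same genes gave -0.13. The plot of levels in both arrays shows that these differences are small beside the span of levels within each cluster.

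**Figure D2:**
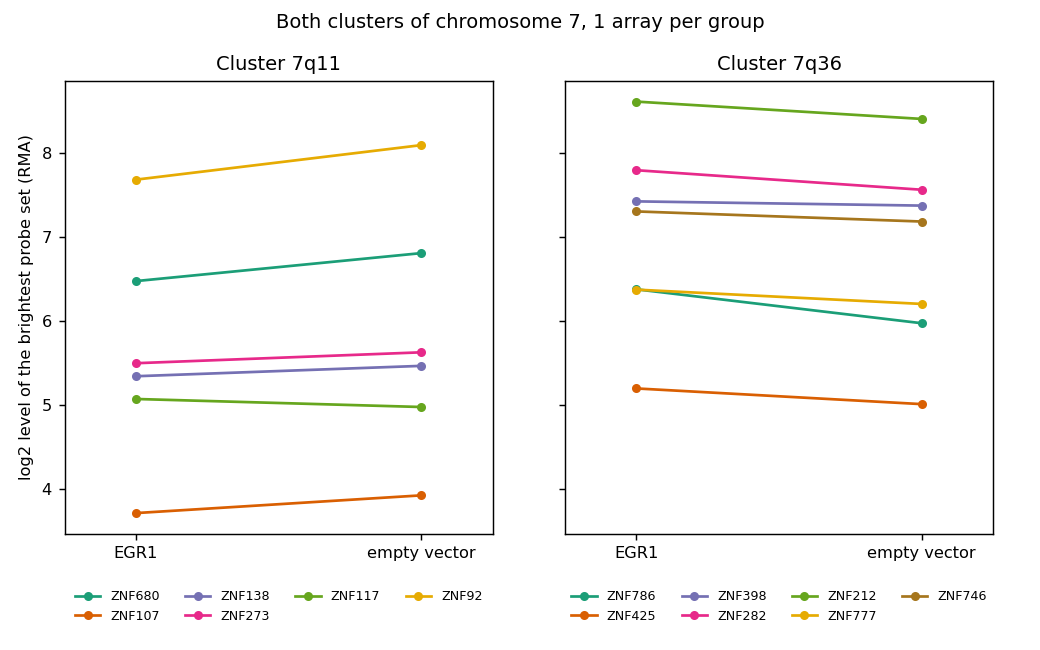
Log2 level of the brightest probe set (vertical axis) in the EGR1 array, left, and in the empty-vector array, right, for the genes of 7q11 and 7q36; each line joins the values of 1 gene. All 7 lines of 7q36 are higher on the EGR1 side, and 5 of 6 lines of 7q11 are lower there, with ZNF117 the exception.

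ZNF519, the 1 listed gene of chromosome 18 (18p11), had the largest difference of the 43. Its single probe set read 4.83 in the EGR1 array and 5.62 in the empty-vector array, or 1.73-fold lower. The mean of both, 5.23, was barely above the floor, and the value of the EGR1 array lay under it.

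ZNF519 and the 5 lower genes of 7q11 had similar promoters. The rule that listed the genes did not use promoters, but these 6 were put together after their values were seen. Their likeness is thus a description. RefSeq promoter windows (250 bases before to 50 bases after the start of a transcript, GRCh38.p14) were found for 37 of the 45 genes. The windows of ZNF680, ZNF107, ZNF138, ZNF273 and ZNF92 were 81.0% to 86.3% identical in pairs, and the window of ZNF519 was 70.0% to 71.0% identical to them. ZNF117 reached 55.7% to 59.0% with the same 5 windows. Its window held 2 CpG dinucleotides and 42.3% GC, the lowest of the listed genes. Whether it is a promoter in use in these cells was not tested. Other pairs among the 37 genes had a median identity of 59.7%, and the closest such pair was ZNF33A and ZNF33B at 84.7%. The sequences are shown because they set some lower genes of both places beside a gene of 7q11 and a gene of 7q36 that were not lower. Each is the 250 bases before the start, 5′ to 3′ on the strand of the gene. Capitals mark ATGCAAAT, the octamer bound by POU-domain factors, and TCCAATCAGGC, the longest string common to the 6 windows. The string contains a CCAAT box, the motif bound by NF-Y. Each of the 6 windows also holds tccaatcagg, left unmarked, further from the start. Among the genes shown, the first 4 carry the string.

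ZNF92 (chr7:65373605-65373854, plus strand): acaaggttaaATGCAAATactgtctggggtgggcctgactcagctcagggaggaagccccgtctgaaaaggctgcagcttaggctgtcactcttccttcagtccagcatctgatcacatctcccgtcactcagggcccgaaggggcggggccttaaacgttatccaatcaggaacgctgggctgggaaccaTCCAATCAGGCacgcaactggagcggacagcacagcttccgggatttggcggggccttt
ZNF680 (chr7:64563072-64563321, minus strand): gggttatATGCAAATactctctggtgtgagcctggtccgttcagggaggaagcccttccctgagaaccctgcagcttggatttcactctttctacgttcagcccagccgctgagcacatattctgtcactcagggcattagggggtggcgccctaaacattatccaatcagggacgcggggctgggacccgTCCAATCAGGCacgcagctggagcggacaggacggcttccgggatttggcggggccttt
ZNF138 (chr7:64794178-64794427, plus strand): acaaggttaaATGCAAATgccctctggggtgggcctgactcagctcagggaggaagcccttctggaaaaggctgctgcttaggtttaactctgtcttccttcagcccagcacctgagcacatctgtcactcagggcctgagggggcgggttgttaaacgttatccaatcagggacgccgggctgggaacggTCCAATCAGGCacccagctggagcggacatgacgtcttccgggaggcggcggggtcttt
ZNF519 (chr18:14132436-14132685, minus strand): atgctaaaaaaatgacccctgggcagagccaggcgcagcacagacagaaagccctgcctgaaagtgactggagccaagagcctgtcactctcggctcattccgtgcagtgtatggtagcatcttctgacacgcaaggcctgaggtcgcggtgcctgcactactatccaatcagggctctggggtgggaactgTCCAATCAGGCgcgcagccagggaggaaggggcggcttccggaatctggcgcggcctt
ZNF117 (chr7:64991037-64991286, minus strand): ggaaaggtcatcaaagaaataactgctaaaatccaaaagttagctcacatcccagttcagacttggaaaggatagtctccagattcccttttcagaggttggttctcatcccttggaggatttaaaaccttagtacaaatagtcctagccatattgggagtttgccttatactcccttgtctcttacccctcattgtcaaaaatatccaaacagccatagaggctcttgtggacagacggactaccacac
ZNF786 (chr7:149090719-149090968, minus strand): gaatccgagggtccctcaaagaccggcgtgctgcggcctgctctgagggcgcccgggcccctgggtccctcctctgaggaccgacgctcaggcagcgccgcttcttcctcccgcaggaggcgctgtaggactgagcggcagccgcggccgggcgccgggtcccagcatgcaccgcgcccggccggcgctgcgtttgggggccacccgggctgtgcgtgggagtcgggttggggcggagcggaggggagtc

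The string TCCAATCAGGC began 53 to 59 bases before the start in the 6 windows. On either strand it was found in 6 of the 37 listed genes with a window, in 9.13% of 219 ZNF genes of chromosome 19, in 1.66% of 181 other ZNF genes outside chromosome 19 and in 0.221% of 15843 protein-coding genes. The octamer ATGCAAAT was found in 5 of the 6 genes of 7q11, all but ZNF117, and in no other listed gene. It was found in 2.22% of protein-coding genes, 5.02% of ZNF genes of chromosome 19 and 1.66% of other ZNF genes outside it. Because the string was taken from the 6 windows after their expression values were seen, the lower levels of the 6 genes that hold it (median -0.27) are no support for a relation. The 29 measured genes with a window that lacks it had a median of -0.03, with 15 below 0 and 13 above. Among genes outside the list, the string was held by 16 measured ZNF genes of chromosome 19. Of these 14 were lower in the EGR1 array and 1 was higher, with a median of -0.21, and the 185 without the string had a median of -0.14 with 122 lower. All 3 unlisted ZNF genes outside chromosome 19 that hold it, ZNF195, ZNF479 and ZNF695, were lower (-0.17, -0.27 and -0.37). Of the 165 such genes without the string 96 were lower too. The plot of genes with and without the string gives these groups side by side. Of 4 genes with the string that are no ZNF genes, 2 were lower and 2 higher. Genes that share such promoters also resemble each other in sequence and can share probe signal, and the part of this in the values was not tested.

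**Figure D3:**
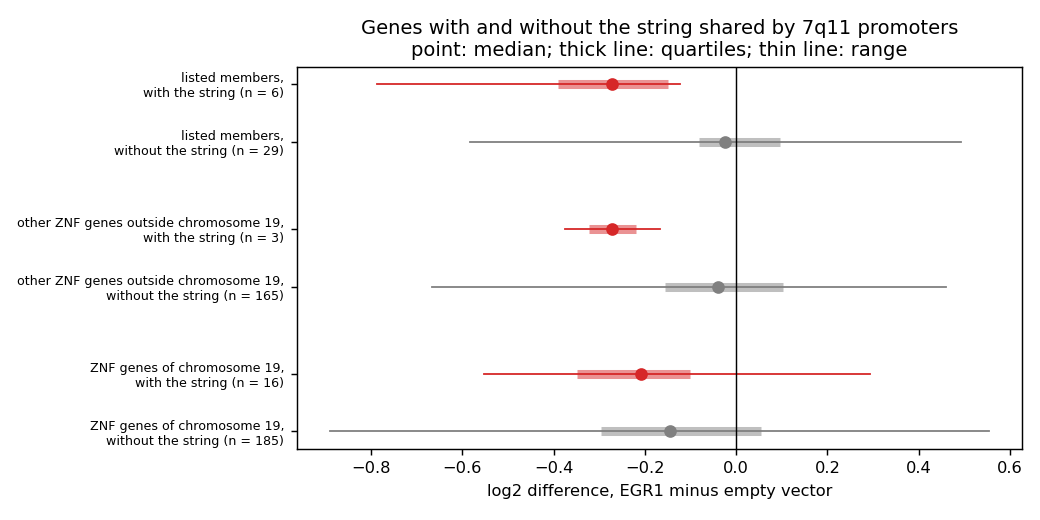
Log2 difference (EGR1 minus empty vector, horizontal axis) of ZNF genes whose promoter window holds the string shared by the 7q11 genes and ZNF519 (red) or lacks it (grey); points are medians, thick lines quartiles, thin lines ranges. The medians with and without the string are -0.27 and -0.03 in the listed genes, from which the string was taken, -0.27 and -0.04 in other ZNF genes outside chromosome 19, and -0.21 and -0.14 on chromosome 19.

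The binding site of EGR1 itself was not seen in these windows. Neither GCGTGGGCG nor its variant GCGGGGGCG, searched on both strands, occurred in any of the 37 listed genes with a window. They were found in 1.38% and 8.54% of protein-coding genes. In ZNF genes of chromosome 19 the shares were 1.37% and 3.2%, and in other ZNF genes outside it 2.21% and 9.94%. This says only that these letters are not in these 300 bases. Windows were missing for ZNF165 of 6p22, for ZNF777 and ZNF746 of 7q36 and for all 5 genes of 8q24. Base composition differed between the clusters of chromosome 7. The median number of CpG dinucleotides per window was 30 in 7q36 (5 of its 7 measured genes, range 20 to 35). In 7q11 it was 13 (all 6 genes, range from 2, for ZNF117, to 19). Over all protein-coding genes it was 21.5. It was 28.5 at 12q24 and 27 for the 1 gene of 6p22 with a window, clusters with median differences of -0.05 and -0.23. In the remaining clusters with windows it ran from 14 (18p11) to 22 (16p13). Across the 35 measured genes with a window, CpG count and difference had a Spearman correlation of 0.27 and a Pearson correlation of 0.22, and without the chromosome 7 clusters the Spearman correlation over 24 genes, none of them of 8q24, was 0.04. In the plot of CpG count against difference the counts of the chromosome 7 clusters do not overlap. Genes are not independent replicates, and all of them come from the same 2 arrays.

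**Figure D4:**
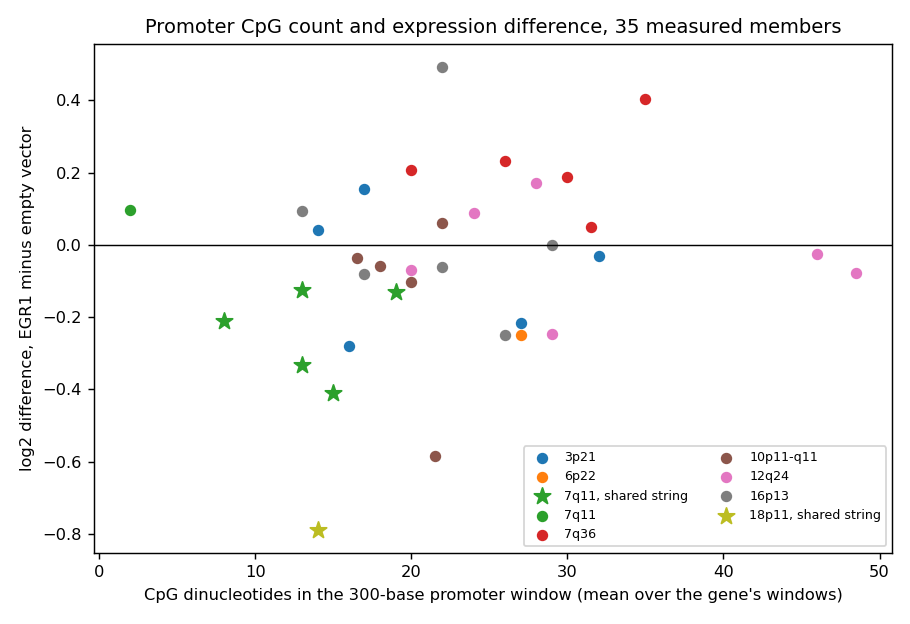
Number of CpG dinucleotides in the promoter window (horizontal axis, mean over the windows of a gene) and log2 difference, EGR1 minus empty vector (vertical axis), for 35 measured genes, coloured by cluster; stars hold the shared string. The genes of 7q36 lie to the right of those of 7q11 and, ZNF117 aside, above them, and the 24 genes of the other clusters plotted have a Spearman correlation of 0.04.

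In the cluster of 10p11-q11, which spans the centromere of chromosome 10, 4 of 5 genes were lower by their brightest probe set and the median was -0.06. Over all genes, 47.9% were below 0. ZNF25, ZNF37A and ZNF33B were lower by less than the pooled SD of 0.15. ZNF33A differed most, at 4.60 in the EGR1 array and 5.18 in the empty-vector array (a difference of -0.58, just short of 1.5-fold), but this level lay under the floor and its 6 probe sets went both ways, from -0.58 to 0.15. With its second brightest probe set the difference was 0.15. Its near copy ZNF33B read 4.63 (EGR1) and 4.73 (empty vector), and its 3 probe sets ranged from -0.42 to -0.10. ZNF37A read 6.47 in the EGR1 array and 6.53 in the empty-vector array, and its 6 probe sets were all lower, down to -0.53. ZNF25 differed by -0.04. ZNF248 was the highest of the cluster at 5.31 (EGR1) and 5.25 (empty vector), with probe sets on both sides of 0. Of the 22 probe sets of the cluster 15 were lower and 6 higher in the EGR1 array.

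Both listed genes of 6p22 were lower by amounts under the threshold, where 47.9% of all genes were below 0. ZNF184 was the brightest of all 43 genes, with 8.83 in the EGR1 array and 9.08 in the empty-vector array. ZNF165, a SCAN-domain cancer-testis antigen, read 7.24 (EGR1) and 7.45 (empty vector). Each rests on 1 probe set, with differences of -0.25 and -0.21.

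At 3p21 the median was -0.03, and 3 of the 5 measured genes were lower, where 47.9% of all genes were below 0. ZNF35 was lowest with 5.77 in the EGR1 array and 6.05 in the empty-vector array, and its dim second probe set was identical in both. ZNF445, which maintains genomic imprinting together with ZFP57, read 6.44 (EGR1) and 6.48 (empty vector). Its 6 probe sets disagreed, from -0.29 to 0.61. The highest of the cluster was ZNF660, at 3.80 (EGR1) and 3.65 (empty vector), and it lay under the floor together with ZNF501 and ZNF502.

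At 8q24, 4 of 5 genes were higher, with a median of 0.06, where 47.6% of all genes were above 0. Alternatives that kept all 5 genes gave 0.06 to 0.14. ZNF251 read 7.56 in the EGR1 array and 7.30 in the empty-vector array, or 1.20-fold higher, by 1 probe set. ZNF16, known to promote erythroid and megakaryocytic differentiation, read 7.91 (EGR1) and 7.73 (empty vector). ZNF34 went the other way at 5.67 in the EGR1 array and 6.03 in the empty-vector array (1.28-fold lower), and its second probe set was lower too (-0.22). ZNF7 and ZNF250 each differed by 0.06.

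Differences at 12q24 were small, with a median of -0.05 over 6 genes that all lay past the floor. ZNF10, whose KRAB domain is the one commonly fused to dCas9 for gene silencing, read 6.24 in the EGR1 array and 6.26 in the empty-vector array, and its 3 probe sets lay between -0.03 and 0.07. ZNF26 was highest at 7.29 (EGR1) and 7.11 (empty vector). ZNF140, a KRAB repressor, was lowest at 8.02 in the EGR1 array and 8.27 in the empty-vector array, but 2 of its 3 probe sets held the same values and the third differed by 0.05. All 4 probe sets of ZNF268 were lower, by -0.07 in the brightest and -0.76 in the dimmest. ZNF84 differed by -0.08 and ZNF605 by 0.09.

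The cluster of 16p13 held the highest gene of all, ZNF213, which carries SCAN and KRAB domains. It read 8.63 in the EGR1 array and 8.14 in the empty-vector array, or 1.41-fold higher. This rests on 1 probe set, since the other 7 ranged from -0.14 to 0.26 and the mean of all 8 was 0.13 (SD 0.19 between probe sets). ZNF200 was lowest with 5.89 (EGR1) and 6.14 (empty vector), and its other probe set differed by -0.40. ZNF263, a SCAN and KRAB factor, read 8.03 in the EGR1 array and 8.09 in the empty-vector array, with 2 probe sets on each side of 0. The SCAN repressor ZNF174 read 6.89 in both arrays, and its second probe set differed by 0.13. ZNF205 differed by 0.09 and the imprinted gene ZNF597, under the floor, by -0.08. The median of the 6 genes was -0.03.

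Other zinc-finger genes gave a yardstick. The 213 measured genes with a ZNF symbol outside chromosome 19 that were not listed had a median difference of -0.03, the same as the listed genes, with 118 lower and 85 higher. Of these, 9.86% were lower and 1.41% higher by 0.32 or more. The 235 ZNF genes of chromosome 19 had a median of -0.13, and 23.0% were lower and 3.83% higher by 0.32 or more. The median of the listed genes lay 0.10 above that of chromosome 19 and 0.01 below that of the unlisted genes elsewhere. With 1 array per group none of these differences could be tested.

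Genes around the clusters were compared with the listed genes, using RefSeq (GRCh38.p14) only to say which genes are neighbours. Around 7q36, 2 of 3 unlisted zinc-finger genes were higher, ZNF467 at 8.24 in the EGR1 array and 7.90 in the empty-vector array and ZNF862, under the floor, at 5.37 (EGR1) and 5.05 (empty vector), while ZNF775 differed by -0.01. The 11 other protein-coding genes measured within 1 Mb of 7q36 had a median of 0.08, with 7 higher. Around 7q11, 3 unlisted zinc-finger genes, all under the floor, lay between -0.08 and 0.20, and the 6 other genes had a median of -0.0006. Around 8q24 the 45 other genes had a median of 0.09, with 30 higher, next to 0.06 for the listed genes. Around 3p21, 11 of 14 other genes were lower (median -0.13). The other clusters had neighbours with medians between -0.01 and 0.06. Around 10p11-q11 both unlisted zinc-finger genes were lower, ZNF239 at 6.74 in the EGR1 array and 7.12 in the empty-vector array, and ZNF487 by -0.13. Of the 12 unlisted zinc-finger genes around 6p22, 8 were lower (median -0.09). For these counts, 47.9% of all genes were below 0 and 47.6% above. In the plot of cluster medians the ranges of listed genes and their neighbours overlap in every cluster but 18p11, which has 1 listed gene.

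**Figure D5:**
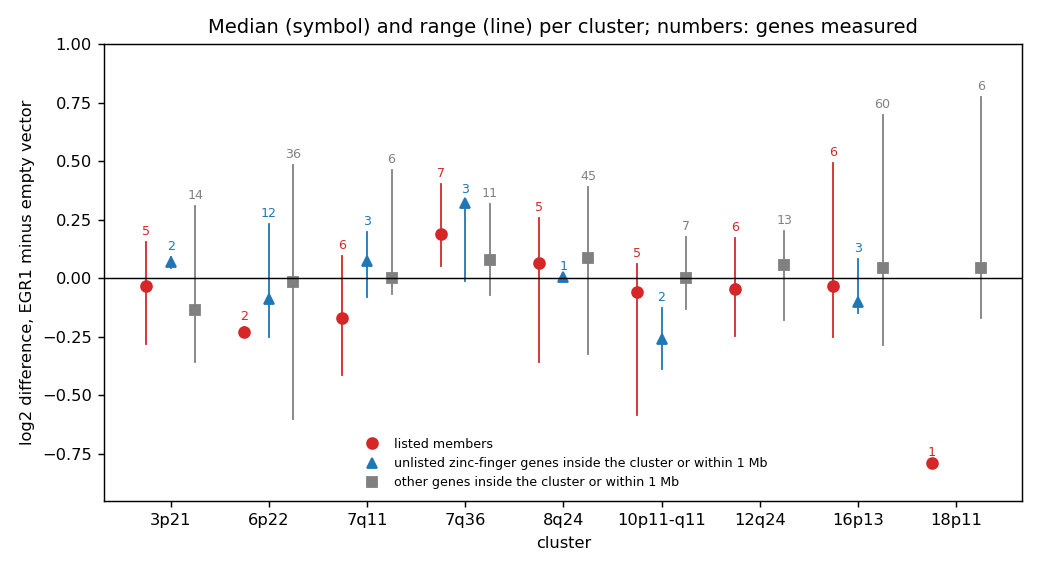
Median (symbols) and range (lines) of the log2 difference, EGR1 minus empty vector (vertical axis), for the listed genes of each cluster (red circles), unlisted zinc-finger genes inside it or within 1 Mb (blue triangles) and other protein-coding genes there (grey squares); numbers count the genes measured. At 7q36 the listed genes have a median of 0.19 and the other genes 0.08, and at 7q11 these are -0.17 and -0.0006.

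A list of 37 genes of KRAB silencing held machinery that KRAB proteins recruit and also ZFP57, itself a KRAB protein. Of the 37 genes 35 were measured, all past the floor, with 20 lower, 13 higher and a median of -0.05. TRIM28 (-0.02) and SETDB1 (0.01), named for their roles after their values were seen, were nearly the same in both arrays. Lower by 0.32 or more were 2 of 35 genes, or 5.71%, where the share of all genes past the floor was 3.25%. These were ATF7IP, the partner that stabilises SETDB1 (6.99 in the EGR1 array and 7.41 in the empty-vector array, 4 probe sets from -0.49 to -0.16), and MORC3, a chromatin ATPase (7.22 for EGR1 and 7.55 for empty vector). Another 2, also 5.71%, were higher by 0.32 or more, where the share was 4.36%. These were ZFP57, the KRAB protein of imprinted loci (6.23 in the EGR1 array and 5.80 in the empty-vector array, 1 probe set), and the DNA methyltransferase DNMT3A (7.57 for EGR1 and 7.20 for empty vector), whose 4 probe sets went both ways.

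Of 33 SCAN-domain genes outside the list 32 were measured, with 17 lower, 15 higher and a median of -0.03. By 0.32 or more, 0 of 32 were lower, against 3.41% of all genes, and 1 was higher, against 5.39%. That gene, ZSCAN4, differed by 0.47, lay under the floor and was named after its value was seen. Of the 23 past the floor none reached 0.32 in either direction, against 3.25% and 4.36%. ZSCAN26 differed by -0.25, PGBD1 by -0.18, ZNF446 by 0.18 and ZKSCAN2 by 0.22.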

How the data were processed

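Expression of H1299 cells given an EGR1 plasmid or the empty plasmid was measured on 1 array each, from 2 µg of total RNA per the labels' protocols. The authors deposited log2 levels per probe set made with RMA, per the submitters' processing notes (version and settings not given in the sources used here). RMA reports neither detection nor error for a probe set, and its normalization can hide a shift of all genes. The number of arrays limits the precision.

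Genes came from GEO's annotation of the platform, matched by Entrez ID to RefSeq (GRCh38.p14). Of 49395 probe sets, 44994 had 1 symbol, 1832 several and 2569 none here, and control probe sets and those with several symbols were not used for a gene. The brightest probe set stood for a gene. Clusters were split where starts lay over 20 Mb apart. The threshold on the log2 difference was 0.32. Full values were given for genes past it and for the highest and lowest gene of each cluster, and from each comparison list for up to 4 genes past the floor with the largest difference. Members, lists and tests were chosen with earlier results of these data known. The window of 1 Mb and the shared promoter string were chosen after the members' values were seen. Windows were aligned in pairs with Biopython 1.88, counting identical bases per 300, and the best pair of windows stood for genes with several. Other steps used Python 3.11.15 and pandas 2.3.3. Counting was tested on simulated data. Protein features of the planned description were not analysed here. No group had replicates, so no test was run.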

Additional observations from a re-analysis of the deposited data

How the results depend on the processing

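No paired analysis was possible because each group had 1 array and no result came from a test. Alternatives were the mean of all probe sets, the second brightest probe set, probe sets without the suffixes _x_at and _s_at, median-centring, a lowess correction and floors at the 40th and 20th percentile. Of 100 recomputed medians and counts 94 stayed within the pooled SD of 0.15 or within 1.5 times the count. That margin is wider than the medians of 3p21, 8q24, 10p11-q11, 12q24, 16p13 and all listed genes. A change of sign there can therefore count as no change. Median-centring shifted all medians by the same small amount and could not alter the differences between listed and other ZNF genes. The floors left out no gene of 6p22, 8q24, 12q24 or 18p11. Many of the 94 could thus hardly change, and their share is no measure of stability. The median of 7q11 moved to -0.33 without _x_at and _s_at probe sets and to -0.34 with the second brightest probe set, and the cause was not tested. At a threshold of 0.20 on the log2 scale 12 genes were lower and 5 higher, and at 1.5-fold 1 was lower and 0 higher. ZNF33A turned to 0.15 with its second brightest probe set. Medians of 3p21, 12q24 and 16p13, and that of all listed genes, crossed 0 under at least 1 alternative and have no settled direction. That of 8q24 was below 0 (-0.03) only with the second brightest probe set, which covers 2 of its 5 genes, whose brightest probe sets gave -0.15, and was 0.06 to 0.14 under the alternatives that kept all 5 genes. By contrast, those of 6p22 (-0.23 to -0.18), 7q11 (-0.34 to -0.13), 7q36 (0.17 to 0.30), 10p11-q11 (-0.21 to -0.04) and 18p11 (-0.82 to -0.77) kept theirs under the alternatives that gave a value. The second brightest probe set gave no value for 6p22 and 18p11. Each measured gene of these clusters has 1 probe set, past the floor and without those suffixes. Only median-centring and the lowess correction could therefore change their medians, so the kept direction was hardly put to a check. The second brightest probe set, the suffixes and the floors also leave out genes. Single genes changed sign in 3 of 43 cases with the mean of all probe sets, in 4 of 32 with the second brightest and in 1 of 40 without the suffixes.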

Other observations

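Some probe sets were annotated to a listed gene together with another gene and stood for neither. The probe set shared by ERV3-1 and ZNF117 read 5.59 in the EGR1 array and 5.36 in the empty-vector array, in the same direction as the 3 probe sets of ZNF117 alone. COMMD5 and ZNF250 shared 2 probe sets under the floor, with differences of 0.53 and 0.19, while COMMD5 by its own brightest probe set was at 8.20 (EGR1) and 8.29 (empty vector). ZNF33A and ZNF33B shared 2 dim probe sets, one identical in both arrays and the other at -0.15.

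Probe sets of one gene disagreed more often than cluster medians show. Of 32 listed genes with 2 or more probe sets, 22 had none on the other side of 0. With probe sets past the floor alone this held for 11 of 15 genes. The brightest probe set of ZNF213 and that of ZNF33A each lay at the end of the range of their gene. For ZNF268, ZNF37A, ZNF25 and ZNF138 the brightest probe set differed less than the mean of all probe sets (-0.07 against -0.36, -0.06 against -0.24, -0.04 against -0.19 and -0.12 against -0.28). So it did for ZNF33B (-0.10 against -0.27). Among genes higher in the EGR1 array the same held for ZNF425 (0.19 against 0.70) and ZNF777 (0.17 against 0.31). The brightest probe set of ZNF282 differed more than the mean (0.23 against 0.07).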
